A study of Mus musculus with 8 samples.

Results

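The genes described here are the enzymes of sterol synthesis and the proteins that govern them through the transcription factor SREBP2. They were taken by symbol from a list of 28 symbols, of which 27 were in the deposited files. The list holds an older and a newer symbol of the same gene, Sc4mol and Msmo1, and the files use Sc4mol. The files held 18691 genes, 14257 genes were tested, and the 27 members were among these. The libraries came from epididymal white fat of C57BL/6J mice aged 16 weeks. Of 8 libraries, 4 were labelled Mrp4 KO (Mrp4-/-) and numbered 1, 2, 4 and 5, and 4 were labelled wild type (WT) and numbered 1, 2, 3 and 4. Values of each library are given in that order. Mrp4, encoded by Abcc4, is a membrane transporter that exports cyclic AMP and prostaglandins. The labels give neither the structure of the altered allele nor the cells in which it acts. Nor do they tell whether the libraries stem from different animals, so a p-value here speaks of the scatter among libraries, which may be technical.

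Cells build cholesterol from acetyl-CoA through mevalonate, isoprenoid diphosphates, squalene and lanosterol, and the isoprenoids also feed ubiquinone, dolichol and protein prenylation. When membrane sterol is low, SCAP carries SREBP2 from the endoplasmic reticulum to the Golgi, where the proteases encoded by Mbtps1 and Mbtps2 release its active part. INSIG proteins hold the complex back when sterol is plentiful. White adipocytes store much free cholesterol and are known to make little of it compared with liver. SREBP1, encoded by Srebf1, is related to SREBP2 and is best known for driving fatty acid synthesis genes.

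Each library held between 14064681 and 14700114 expected counts. Abcc4 was at 3.54, 3.68, 3.89 and 3.31 FPKM in libraries labelled Mrp4 KO, and at 3.59, 3.33, 3.81 and 3.33 FPKM in WT (FPKM, fragments per kilobase of transcript scaled to library depth). The groups overlapped, and a permutation test (exact, two-sided, log2(FPKM + 1)) gave p = 0.571, where 4 against 4 libraries allow no p below 0.0286. The transcript level therefore does not bear out the label, although a level alone does not show whether the protein is made. Directions given here are between libraries as labelled. Adipocyte markers were abundant in every library, with a summed level of 21510 to 25470 FPKM over 8 genes in libraries labelled Mrp4 KO and 27210 to 31650 FPKM in WT. Of these 8 genes 4 fell, namely Plin1, Cfd, Retn and Adrb3. Without Cfd the sum over the other 7 was 17820 to 23050 FPKM in libraries labelled Mrp4 KO and 17030 to 20930 FPKM in WT, and the groups overlapped. Fabp4 made up the largest part of that sum, with means of 11970 and 10600 FPKM, and its groups overlapped, as did those of Adipoq and Cidec. Plin1, Retn, Adrb3 and also Lipe, which did not pass, each lay wholly below WT. Hepatocyte markers summed to 676 to 1302 FPKM over 8 genes in libraries labelled Mrp4 KO and 35.8 to 89.1 FPKM in WT, and all 8 rose. Of 4 mesothelial markers 1 fell (44.7 to 122.8 FPKM summed in libraries labelled Mrp4 KO and 121.2 to 186.6 FPKM in WT), and of 4 fibroblast markers 2 rose and 1 fell. Of 4 genes of the epididymis looked for, 2 were in the files, Crisp1 and Lcn8. Crisp1 was at 13.47 FPKM in WT replicate 2 and at no more than 0.6 FPKM in the other libraries. Lcn8 was at 0.0 FPKM in WT replicate 2 and at no more than 0.12 FPKM in any library.

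Sterol synthesis enzymes were lower in the libraries labelled Mrp4 KO at several steps between acetyl-CoA and the early derivatives of lanosterol. Of the 27 members, 8 fell, 0 rose and 19 did not pass an adjusted p of 0.05 (edgeR quasi-likelihood test, Benjamini-Hochberg adjustment over all tested genes). Over all tested genes 18.3% passed, with 8.05% lower (1148 genes) and 10.2% higher (1458 genes). Scaling by library size alone gave 680 lower and 1950 higher genes, with the same 8 members lower. The 8 were Acat2, Pmvk, Idi1, Fdps, Sqle, Lss, Cyp51 and Nsdhl. The median log2 fold change was -0.245 over the 27 members and -0.46 over the 20 enzymes among them, beside -0.003 over all tested genes.

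The levels of all 20 enzymes added to 371.5, 345.6, 359.5 and 362.7 FPKM in libraries labelled Mrp4 KO, against 705.8, 402.2, 448.9 and 485.6 FPKM in WT. Every library labelled Mrp4 KO lay below every WT library, and WT replicate 1 was the highest. The 8 that fell made up 113.1, 107.7, 109.4 and 120.4 FPKM of this in libraries labelled Mrp4 KO and 329.6, 137.6, 189.8 and 239.6 FPKM in WT, a gap that their choice by the test fixes. The other 12 made up 258.4, 237.9, 250.2 and 242.3 FPKM in libraries labelled Mrp4 KO and 376.1, 264.6, 259.1 and 246.0 FPKM in WT, and there the groups overlapped at WT replicate 4. In whole tissue, fewer cells of a type and less RNA per cell cannot be told apart. The part of the hepatocyte and adipocyte markers in these results was not tested.

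**Figure D1:**
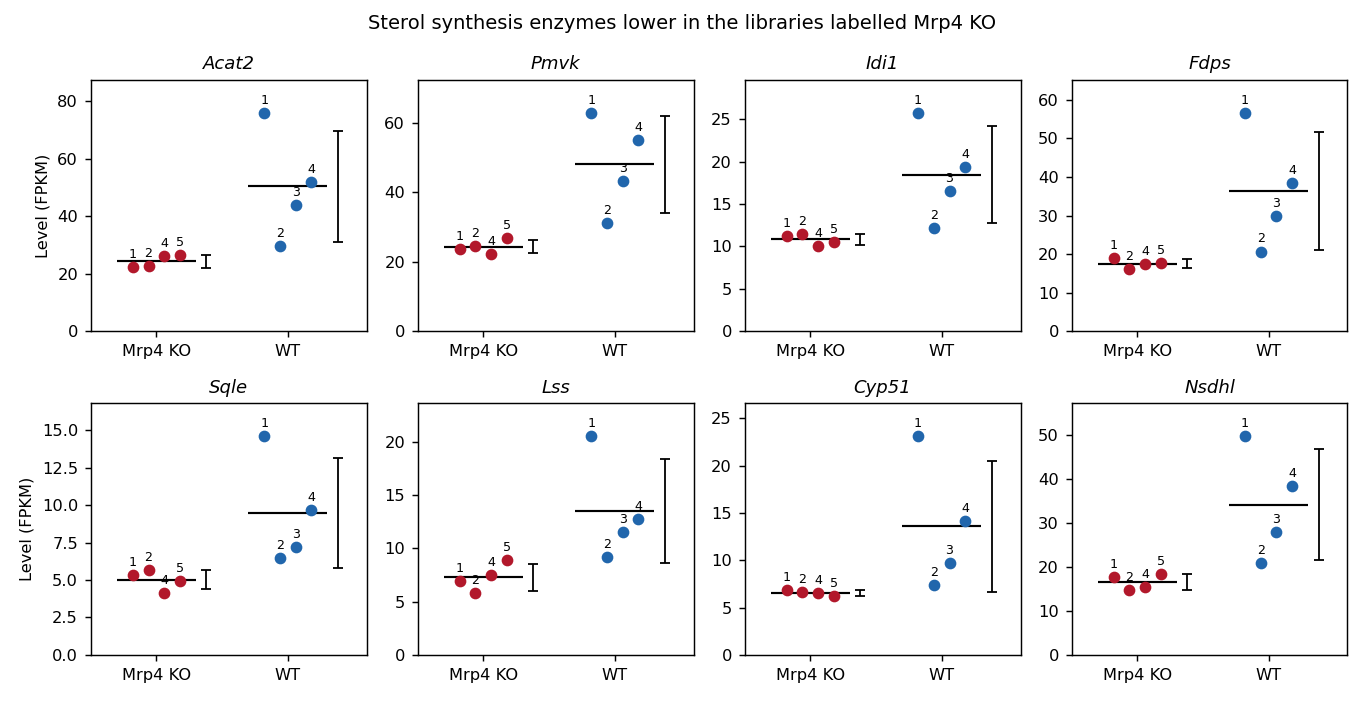
Level of the 8 enzymes that passed the test, in FPKM on linear axes from 0, in libraries labelled Mrp4 KO (left) and WT (right). Points are libraries, numbered by replicate, with the group mean and ± 1 SD (n = 4 each). The libraries labelled Mrp4 KO lie close together and below every WT library, and in each panel WT replicate 1 is the highest and WT replicate 2 the lowest of the WT libraries.

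The mevalonate branch held 4 of the 8. Acat2, the cytosolic thiolase that joins acetyl-CoA units into acetoacetyl-CoA, was at 22.4, 22.5, 26.1 and 26.65 FPKM in libraries labelled Mrp4 KO, against 76.1, 29.7, 43.8 and 51.9 FPKM in WT. The groups did not overlap, and the WT values ran over a much wider range. The log2 fold change of Acat2 was -1.11 ± 0.25 (SE; edgeR adjusted p = 0.0185). Its paralogue Acat3, with which reads may be shared, averaged 10.9 ± 1.48 FPKM in libraries labelled Mrp4 KO and 11.1 ± 1.73 FPKM in WT (SD, n = 4 each) and did not pass.

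Pmvk, phosphomevalonate kinase, had 23.7, 24.5, 22.4 and 26.9 FPKM in libraries labelled Mrp4 KO, against 63.05, 31.2, 43.25 and 55.02 FPKM in WT. Every library labelled Mrp4 KO was below every WT library. The log2 fold change was -1.05 ± 0.20 (adjusted p = 0.0108), with the lowest p among the members. Its call held in 8 of 8 fits with a library left out, at -1.22 to -0.89. Of the other enzymes that fell, Acat2 and Nsdhl held in 6 of 8, Idi1, Sqle and Lss in 4, Fdps in 3 and Cyp51 in 2.

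Idi1 encodes the isomerase that interconverts the basic isoprenoid units, and Fdps the synthase that joins them into farnesyl diphosphate. Idi1 was at 11.2, 11.5, 10.1 and 10.6 FPKM in libraries labelled Mrp4 KO, against 25.8, 12.1, 16.55 and 19.3 FPKM in WT (-0.84 ± 0.20, adjusted p = 0.0233). The groups did not overlap, with WT replicate 2 just above the libraries labelled Mrp4 KO. Fdps was at 18.95, 16.2, 17.4 and 17.7 FPKM in libraries labelled Mrp4 KO, against 56.7, 20.7, 29.9 and 38.4 FPKM in WT (-1.12 ± 0.27, adjusted p = 0.0239). Its groups did not overlap either.

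Hmgcs1, the synthase that makes HMG-CoA, did not pass. It was at 91.5, 76.3, 83.1 and 84.4 FPKM in libraries labelled Mrp4 KO, against 122, 95.95, 85.8 and 75.7 FPKM in WT. The groups overlapped, with a log2 fold change of -0.245 ± 0.14 and a 95% interval for the fold of 0.683 to 1.04 (adjusted p = 0.226). In the GENCODE annotation Hmgcs1 overlaps Gm48342 on the opposite strand by 458 bases, so a part of its reads could belong to that gene. Mvd, mevalonate diphosphate decarboxylase, was at 6.44, 4.02, 5.17 and 5.76 FPKM in libraries labelled Mrp4 KO, against 20.9, 7.08, 7.81 and 7.76 FPKM in WT. Its ranges did not overlap, yet WT replicate 1 stood far above the other WT libraries and the test did not pass (-1.09 ± 0.36, adjusted p = 0.0619). Without WT replicate 1 the log2 fold change of Mvd was -0.56. Mvk, mevalonate kinase, had ranges that did not overlap as well, 14.75 to 15.8 FPKM in libraries labelled Mrp4 KO and 16.45 to 23.5 FPKM in WT (-0.35 ± 0.12, adjusted p = 0.064). Ggps1, which makes the geranylgeranyl diphosphate used in prenylation, averaged 10.3 ± 0.502 FPKM in libraries labelled Mrp4 KO and 11.03 ± 0.747 FPKM in WT (SD, n = 4 each) and did not pass.

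In the squalene segment Sqle and Lss fell. Sqle, squalene epoxidase, was at 5.33, 5.68, 4.16 and 4.94 FPKM in libraries labelled Mrp4 KO, against 14.6, 6.46, 7.18 and 9.65 FPKM in WT (-0.98 ± 0.25, adjusted p = 0.0276). Lss, the cyclase that makes lanosterol, was at 6.94, 5.81, 7.46 and 8.93 FPKM in libraries labelled Mrp4 KO, against 20.5, 9.21, 11.5 and 12.7 FPKM in WT (-0.96 ± 0.24, adjusted p = 0.0284). The groups overlapped for neither gene, and in both WT replicate 2 was close to the highest library labelled Mrp4 KO. Fdft1, squalene synthase, averaged 20.75 ± 1.42 FPKM in libraries labelled Mrp4 KO and 23.2 ± 3.03 FPKM in WT (SD, n = 4 each) and did not pass (-0.23 ± 0.10, adjusted p = 0.127). In the GENCODE annotation it overlaps Ctsb on the opposite strand by 774 bases, and Ctsb was far more abundant, at 481 to 573 FPKM in libraries labelled Mrp4 KO and 379.9 to 463 FPKM in WT. No use of strand in the counting is stated, so reads of these genes could not be told apart there.

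Among the 9 genes that turn lanosterol into cholesterol, Cyp51 and Nsdhl fell. Cyp51, the lanosterol demethylase, was at 6.87, 6.69, 6.5 and 6.18 FPKM in libraries labelled Mrp4 KO, against 23.1, 7.38, 9.71 and 14.1 FPKM in WT (-1.12 ± 0.31, adjusted p = 0.0353). Its call held in 2 of 8 fits with a library left out and was lost without WT replicate 1 (-0.74, adjusted p = 0.0533). Nsdhl, a dehydrogenase that acts with Sc4mol and Hsd17b7 to remove methyl groups from lanosterol, was at 17.7, 14.9, 15.4 and 18.5 FPKM in libraries labelled Mrp4 KO, against 49.8, 20.8, 27.9 and 38.4 FPKM in WT (-1.11 ± 0.24, adjusted p = 0.0173). The groups did not overlap for either gene. In the GENCODE annotation Cyp51 overlaps Akap9 on the opposite strand by 166 bases, and Idi1 and Lss overlap Gm48574 and 4930483K19Rik, also on the opposite strand. Fdps overlaps Gm43738 on the same strand by 197 bases. A part of the reads of these enzymes could belong to those genes. Akap9 averaged 5.985 ± 0.251 FPKM in libraries labelled Mrp4 KO and 5.48 ± 0.333 FPKM in WT (SD, n = 4 each) and did not pass.

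The partners of Nsdhl did not pass. Sc4mol averaged 14.1 ± 0.754 FPKM in libraries labelled Mrp4 KO and 16.4 ± 3.2 FPKM in WT (SD, n = 4 each), and the 95% interval for the fold was 0.672 to 1.0. Hsd17b7 averaged 3.41 ± 0.312 FPKM in libraries labelled Mrp4 KO and 3.17 ± 1.1 FPKM in WT, with an interval from 0.739 to 1.43. Dhcr7, a reductase of the last steps, was at 9.67, 6.58, 8.95 and 7.33 FPKM in libraries labelled Mrp4 KO, against 17.2, 8.72, 9.65 and 9.36 FPKM in WT (-0.53 ± 0.23, adjusted p = 0.124). WT replicate 1 alone lay above the highest library labelled Mrp4 KO. Sc5d, a sterol desaturase, was at 41.5 to 46.2 FPKM in libraries labelled Mrp4 KO and 39.85 to 83.1 FPKM in WT and did not pass (adjusted p = 0.192). Ebp, a sterol isomerase, was at 24.6 to 26.8 FPKM in libraries labelled Mrp4 KO and 25.2 to 29.4 FPKM in WT and did not pass (adjusted p = 0.143).

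Tm7sf2 and Lbr encode sterol reductases that act at the same step, and Lbr is also the lamin B receptor of the inner nuclear membrane. Lbr was at 11.3, 10.8, 9.93 and 9.37 FPKM in libraries labelled Mrp4 KO, against 8.75, 9.07, 8.73 and 6.92 FPKM in WT. All libraries labelled Mrp4 KO lay above all WT libraries, but it did not pass (0.24 ± 0.09, adjusted p = 0.0882). Tm7sf2 averaged 5.77 ± 1.02 FPKM in libraries labelled Mrp4 KO and 5.83 ± 1.62 FPKM in WT (SD, n = 4 each) and did not pass. Over the members, 10 had FPKM ranges wholly below WT and 1 wholly above, where 7.08% of all tested genes lay wholly below and 16.4% wholly above.

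**Figure D2:**
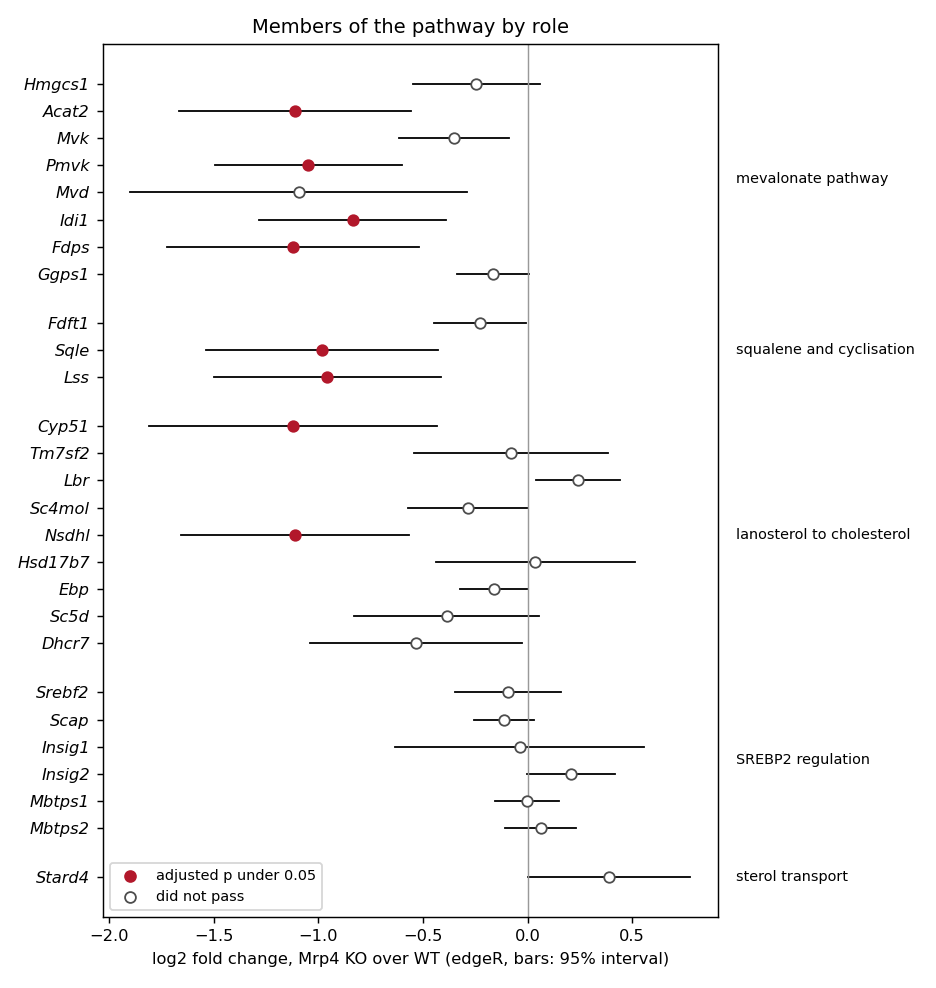
Fitted log2 fold change of each of the 27 members, libraries labelled Mrp4 KO over WT, with its 95% interval, grouped by role. Filled points passed an adjusted p of 0.05. The 8 that passed are enzymes with values between -1.12 and -0.84, and the other 12 enzymes did not pass. The 6 regulators of SREBP2 and Stard4 lie between -0.11 and 0.39 and did not pass either.

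Of the 6 regulators of SREBP2, 0 rose and 0 fell, where 18.3% of all tested genes passed. At that share, 0 of 6 does not set the regulators apart from other genes. Srebf2 itself was at 19.7, 19.7, 14.4 and 14.8 FPKM in libraries labelled Mrp4 KO, against 18.3, 17.3, 18.98 and 15.4 FPKM in WT. The groups overlapped, with a log2 fold change of -0.09 ± 0.11 and a 95% interval for the fold of 0.787 to 1.12 (adjusted p = 0.587). Scap was at 16.6, 17.1, 16.0 and 14.9 FPKM in libraries labelled Mrp4 KO, against 17.1, 15.8, 16.6 and 17.3 FPKM in WT, the fold's interval being 0.839 to 1.02. Its groups overlapped too. The intervals of both protease genes included no change, from 0.897 to 1.11 for Mbtps1 and from 0.927 to 1.18 for Mbtps2. In the GENCODE annotation Mbtps2 overlaps Yy2 on the same strand by 2867 bases, and Scap overlaps 5830462I19Rik on the opposite strand by 221. A part of their reads could therefore belong to those genes.

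Insig1 and Insig2 encode the proteins that retain SCAP, and Insig1 is itself a target of SREBPs. Insig1 was at 74.6, 52.8, 66.2 and 78.4 FPKM in libraries labelled Mrp4 KO, against 112, 55.1, 52.02 and 48.3 FPKM in WT. WT replicate 1 was the highest of all libraries, and the other WT libraries were near the lowest library labelled Mrp4 KO. The log2 fold change was -0.04 ± 0.26 with all libraries (adjusted p = 0.934) and 0.33 without WT replicate 1 (adjusted p = 0.132). Insig2 was at 28.7, 29.2, 30.85 and 30.3 FPKM in libraries labelled Mrp4 KO, against 21.02, 28.9, 26.5 and 22.3 FPKM in WT (0.21 ± 0.09, adjusted p = 0.144). WT replicate 2 alone reached into the range of the libraries labelled Mrp4 KO. Stard4, a carrier that moves sterol between membranes, was at 2.62, 3.18, 2.92 and 2.58 FPKM in libraries labelled Mrp4 KO, against 2.71, 1.94, 1.54 and 2.04 FPKM in WT (0.39 ± 0.17, adjusted p = 0.138). WT replicate 1 alone overlapped the libraries labelled Mrp4 KO.

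The enzymes that fell shared an order among the WT libraries. In all 8 the level was highest in WT replicate 1, then 4, then 3, and lowest in WT replicate 2. Of the 27 members, 13 had this order, among them Mvk, Fdft1, Sc4mol, Tm7sf2 and Hsd17b7, which did not pass. Over all tested genes 6.5% had it. Srebf1 and Aacs, described further on, had it as well, and so did the adipocyte markers Cfd and Retn, which fell. It was also the order of Scarb1, Vcp, Fnta, Fntb, Pgrmc1, Acat3 and Tcp1, which did not pass, and of the hepatocyte marker Serpina1c, which rose. The hepatocyte markers Alb, Apoa1, Apoa2, Ahsg, Mbl2 and Ttr had other orders but were also highest, among WT libraries, in WT replicate 1. Fabp1 was highest in WT replicate 3. WT replicate 1 was the highest WT library for 19 of 27 members, against 27.1% of tested genes, and WT replicate 2 was the lowest for 17 of 27, against 23.9%. WT replicate 2 is also the library with Crisp1 at 13.47 FPKM, though Lcn8 was at 0.0 FPKM there. Of the WT libraries, it had the highest level of the endothelial markers Cdh5, Tie1, Pecam1 and Tek. All 4 of these markers rose in libraries labelled Mrp4 KO. The part of other cell types in the order was not tested.

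Spread within a group differed in the same genes. The coefficient of variation (SD as a percentage of the mean FPKM) of the 8 enzymes had a median of 8.54% in libraries labelled Mrp4 KO and 37.7% in WT. It was smaller in libraries labelled Mrp4 KO for 24 of 27 members, as for 58.8% of all tested genes. The medians over all tested genes were 10.2% in libraries labelled Mrp4 KO and 11.9% in WT. With 4 libraries a group this is a description, and no test was made of it.

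**Figure D3:**
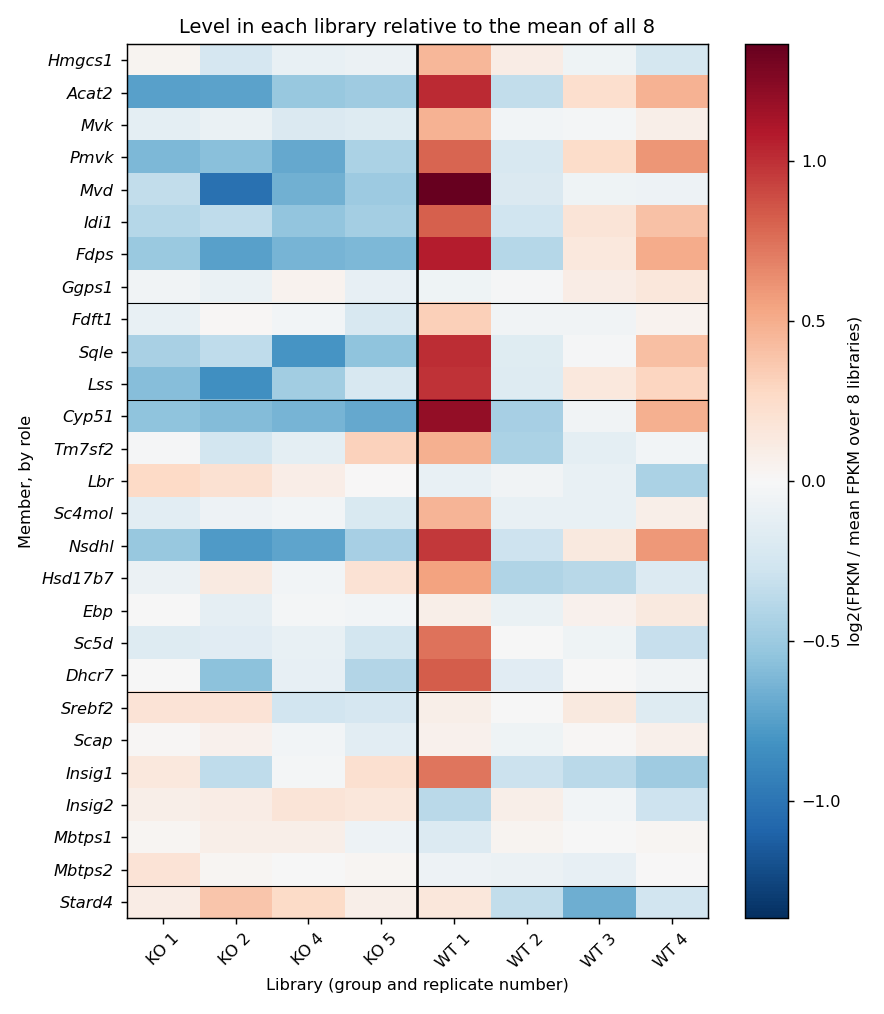
Level of each member in each library relative to the member's own mean, on a log2 scale, with members by role from top to bottom and libraries labelled Mrp4 KO left of WT. The 8 enzymes that fell are below their mean in all 4 libraries labelled Mrp4 KO and highest in WT replicate 1, while Scap, Mbtps1 and Mbtps2 stay near their mean.

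The calls depended on which libraries were in the fit. With 1 library left out in turn, all 8 enzymes kept a negative log2 fold change in each of the 8 fits. For each of the 8, every library labelled Mrp4 KO lay below every WT library, so leaving 1 out could hardly reverse the sign. The kept sign is therefore no separate support. The number of members that fell was 2, 5, 2 and 4 without replicate 1, 2, 4 and 5 labelled Mrp4 KO, where 3.76%, 4.48%, 3.66% and 3.85% of all tested genes fell. It was 7, 11, 8 and 1 without WT replicate 1, 2, 3 and 4, where 4.0%, 11.8%, 4.17% and 3.13% of all tested genes fell. Without WT replicate 2, Mvd, Mvk and Ebp also fell and Insig2 rose, where 13.7% of all tested genes rose. Without WT replicate 1, the log2 fold changes of the 8 were -0.89 to -0.63, and 7 of them passed. Without WT replicate 4 only Pmvk passed, although the fold changes of the 8 were -1.10 to -0.81.

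**Figure D4:**
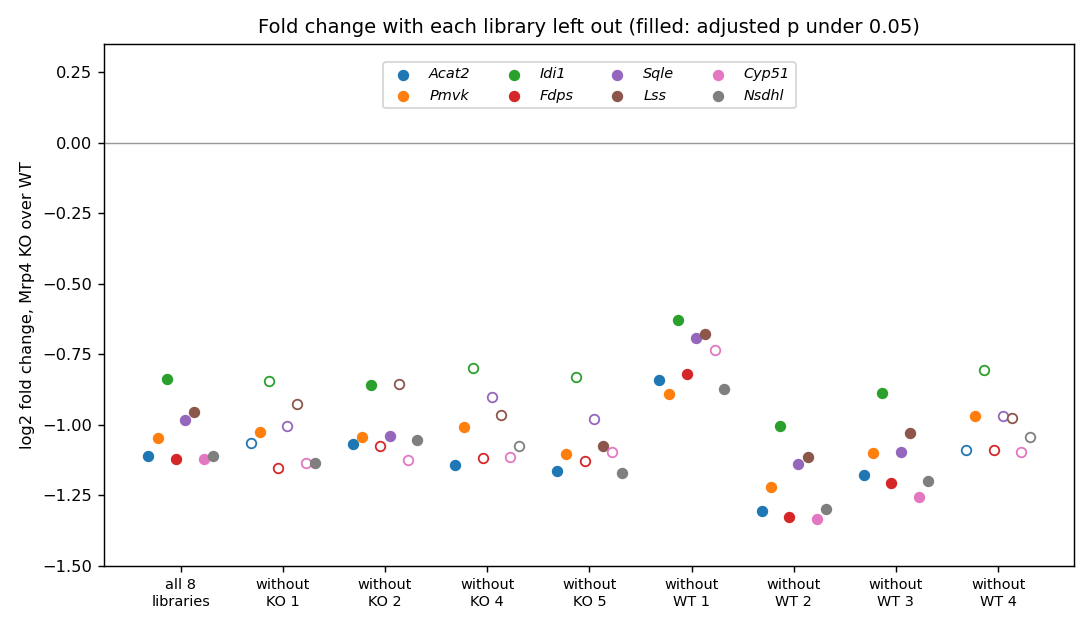
Fitted log2 fold change of the 8 enzymes, libraries labelled Mrp4 KO over WT, with all libraries and with each library left out. Filled points have an adjusted p under 0.05 and open points do not. All points lie below 0, which follows from groups that did not overlap. Those without WT replicate 1 are nearest to 0, and Pmvk is filled in every fit.

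Other scalings, filters and tools gave like counts of members. The number that fell was 8 with DESeq2 size factors, with library size alone and with upper quartile factors, where 8.0%, 4.77% and 6.75% of tested genes fell. It was 7 with no filter on low counts and 8 with a stricter filter, where 5.72% and 8.29% of tested genes fell. DESeq2 called 10, adding Mvd and Mvk, where 10.7% fell. The number was 7 with limma-voom and with limma on log2(FPKM + 1) and log2(FPKM + 0.1), where 7.67%, 4.71% and 4.78% fell. Wherever 7 were called, Cyp51 was the one lost. With the 6 libraries whose numbers occur in both groups it was 0, where 1.22% fell.

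The promoters of enzymes that fell are shown because these members moved together. RefSeq promoters on GRCm38.p6 were found for 23 of the 27 members, including 6 of the 8 that fell. Each line gives the 150 bases before the gene's start, 5′ to 3′ on the gene's strand, in lower case. Capitals mark CCAAT, the box bound by the factor NF-Y, and also GGGCGG, the core of the SP1 site, and a motif that lies on the other strand is printed as its reverse complement. Hmgcs1 and Insig1, which did not pass, stand below the 6 for comparison.
Acat2, chr17:12960726-12960875, minus strand: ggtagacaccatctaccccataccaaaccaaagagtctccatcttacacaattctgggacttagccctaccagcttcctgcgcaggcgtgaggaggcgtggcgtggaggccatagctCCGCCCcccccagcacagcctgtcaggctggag
Pmvk, chr3:89454391-89454540, plus strand: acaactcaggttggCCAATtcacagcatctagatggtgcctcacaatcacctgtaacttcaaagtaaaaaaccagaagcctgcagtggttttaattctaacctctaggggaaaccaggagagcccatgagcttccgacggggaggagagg
Idi1, chr13:8885456-8885605, plus strand: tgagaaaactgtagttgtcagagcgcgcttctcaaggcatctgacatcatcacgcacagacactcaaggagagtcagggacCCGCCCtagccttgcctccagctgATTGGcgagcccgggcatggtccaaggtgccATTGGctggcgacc
Lss, chr10:76531455-76531604, plus strand: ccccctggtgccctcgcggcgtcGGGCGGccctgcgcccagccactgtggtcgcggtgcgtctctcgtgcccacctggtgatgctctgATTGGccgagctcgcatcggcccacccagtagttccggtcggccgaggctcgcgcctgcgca
Cyp51, chr5:4104698-4104847, minus strand: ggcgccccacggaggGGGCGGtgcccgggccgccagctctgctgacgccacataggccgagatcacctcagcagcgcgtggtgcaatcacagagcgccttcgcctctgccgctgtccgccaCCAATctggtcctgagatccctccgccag
Nsdhl, chrX:72918371-72918520, plus strand: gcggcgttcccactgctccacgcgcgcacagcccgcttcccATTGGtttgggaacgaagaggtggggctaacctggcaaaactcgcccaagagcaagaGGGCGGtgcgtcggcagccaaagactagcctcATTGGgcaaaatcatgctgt
Hmgcs1, chr13:119690201-119690350, plus strand: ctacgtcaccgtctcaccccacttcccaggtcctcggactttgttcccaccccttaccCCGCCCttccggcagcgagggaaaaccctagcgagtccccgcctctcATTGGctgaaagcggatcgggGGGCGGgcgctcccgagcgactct
Insig1, chr5:28071262-28071411, plus strand: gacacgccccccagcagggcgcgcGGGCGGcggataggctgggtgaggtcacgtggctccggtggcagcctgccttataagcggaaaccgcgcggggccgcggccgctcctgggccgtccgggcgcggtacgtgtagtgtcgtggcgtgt

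CCAAT on either strand was found within 250 bases before the start in 19 of the 23 members, against 37.5% of 27025 genes with a RefSeq promoter. It was present in 5 of the 6 that fell, in all but Acat2, and in 14 of the 17 that did not pass. In Idi1 it lies 45 to 41 and 14 to 10 bases before the start, and in Nsdhl 109 to 105 and 20 to 16 bases before it. GGGCGG was found in 20 of the 23 members, against 35.4% of genes, and not in Pmvk, Ggps1 and Mbtps2. It overlapped no CCAAT in the stretches shown. The consensus sterol regulatory element, as an exact match, was in 0 of the 23 and in 0.226% of genes. Its shorter core CACNCCAC, searched on both strands after the longer form had been looked at, was in 3 of the 23 (Acat2, Hmgcs1 and Insig1) and in 6.05% of genes. A match is letters in a window, not a site shown to be bound. Elements that differ from the consensus or its core by a base were not searched for. The 0 of the 23 therefore does not show that these promoters lack a sterol regulatory element. The 27025 genes include genes not tested here, while every member was tested, so the shares do not come from a matched set.

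Of the other genes of the pathway, 16 act in sterol and isoprenoid synthesis, of which 2 rose, 3 fell and 11 did not pass. Among all tested genes 10.2% rose and 8.05% fell. The median log2 fold change of the 16 was -0.16. Aacs, acetoacetyl-CoA synthetase, which feeds ketone bodies into lipid synthesis, was at 37.4, 41.9, 48.1 and 46.99 FPKM in libraries labelled Mrp4 KO, against 158, 59.4, 83.2 and 98.4 FPKM in WT (-1.26 ± 0.26, adjusted p = 0.0149). Its groups did not overlap and its order among WT libraries was that of the 8 enzymes. Por, the reductase that passes electrons to Cyp51 and Sqle among others, was at 135, 143, 149.6 and 131 FPKM in libraries labelled Mrp4 KO, against 205, 188, 216 and 219 FPKM in WT (-0.63 ± 0.08, adjusted p = 0.00173). Its groups did not overlap, and the WT libraries lay close together.

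Pdss1, a subunit of the synthase for the ubiquinone side chain, fell at low levels, with 1.405 ± 0.311 FPKM in libraries labelled Mrp4 KO and 2.35 ± 0.543 FPKM in WT (SD, n = 4 each; -0.81 ± 0.23, adjusted p = 0.039). Its call held in 2 of 8 fits with a library left out. Nus1, a subunit of the prenyltransferase that makes dolichol, rose, at 18.7 to 21.4 FPKM in libraries labelled Mrp4 KO and 13.5 to 16.6 FPKM in WT (0.35 ± 0.08, adjusted p = 0.0214), and held in 4 of 8 such fits. Cyb5r3, cytochrome b5 reductase, rose, at 195 to 217 FPKM in libraries labelled Mrp4 KO and 143 to 187 FPKM in WT (0.30 ± 0.09, adjusted p = 0.0448), and held in 1 of 8.

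Of 13 other genes of SREBP processing and degradation, 1 rose, 1 fell and 11 did not pass. These counts are near the shares of all tested genes, of which 10.2% rose and 8.05% fell. The median log2 fold change of the 13 was -0.07. Srebf1 was at 68.95, 75.3, 68.6 and 69.1 FPKM in libraries labelled Mrp4 KO, against 212, 107, 124 and 142 FPKM in WT (-1.12 ± 0.19, adjusted p = 0.00702). Its groups did not overlap, and the call held in 8 of 8 fits with a library left out. Sec23a, a coat protein of the vesicles that leave the endoplasmic reticulum, was at 16.5, 16.1, 16.1 and 16.2 FPKM in libraries labelled Mrp4 KO, against 12.04, 13.3, 13.1 and 11.5 FPKM in WT (0.31 ± 0.06, adjusted p = 0.00888). It was higher in every library labelled Mrp4 KO than in any WT library. Rnf139, Syvn1, Erlin1, Erlin2, Ube2g2 and Vcp, which act in the degradation of endoplasmic reticulum proteins, did not pass, with log2 fold changes from -0.25 to 0.17.

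Of 21 genes of sterol uptake, storage and export, 4 rose, 1 fell and 16 did not pass. Among all tested genes 10.2% rose and 8.05% fell, and the list as a whole was not tested. The median log2 fold change of the 21 was 0.07. Lipa, the lysosomal lipase that frees cholesterol from its esters, was at 50.9, 42.9, 53.1 and 41.6 FPKM in libraries labelled Mrp4 KO, against 30.9, 33.7, 28.7 and 30.8 FPKM in WT (0.54 ± 0.09, adjusted p = 0.00567). Nceh1, a cholesteryl ester hydrolase of macrophages, was at 4.24, 4.36, 5.44 and 3.98 FPKM in libraries labelled Mrp4 KO, against 2.71, 2.95, 2.82 and 2.94 FPKM in WT (0.59 ± 0.11, adjusted p = 0.00836). Both held in 8 of 8 fits with a library left out, and the groups overlapped for neither.

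Abcg1, which exports cholesterol, averaged 11.9 ± 1.085 FPKM in libraries labelled Mrp4 KO and 7.48 ± 2.07 FPKM in WT (SD, n = 4 each; 0.61 ± 0.16, adjusted p = 0.0341), and its call held in 1 of 8 fits with a library left out. Vldlr, a lipoprotein receptor, averaged 20.3 ± 4.3 FPKM in libraries labelled Mrp4 KO and 12.4 ± 2.56 FPKM in WT (0.65 ± 0.17, adjusted p = 0.0335), and held in 2 of 8. Its groups overlapped, with 15.7 FPKM in replicate 2 labelled Mrp4 KO and 16.24 FPKM in WT replicate 2. Ch25h, which makes an oxysterol, fell, at 0.41 to 0.52 FPKM in libraries labelled Mrp4 KO and 0.69 to 1.73 FPKM in WT, on 8 to 10 and 13 to 33 expected counts a library (-1.28 ± 0.36, adjusted p = 0.0374). It held in 2 of 8. The exporter gene Abca1 did not pass (log2 fold change -0.05), nor did Nr1h2 (-0.02) and Nr1h3 (-0.19), which encode the LXR sensors of oxysterols. Macrophage markers moved beside these genes: 4 of 5 rose, with a summed level of 298.9 to 386.7 FPKM in libraries labelled Mrp4 KO and 173.5 to 229 FPKM in WT. Of the 5, 0 were at 0 in all libraries, and their part in the result was not tested.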

How the data were processed

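Total RNA was taken from the tissue, and poly-A RNA was read as pairs of 100 bases on a BGISEQ platform, per the labels' protocols. The submitters' processing notes name Bowtie2 and mm9. For the quantifier and the annotation nothing is given in the sources used here. For each gene and library the deposited files hold an expected count, an FPKM value and a transcript length, per the file headers. A gene missing from a library's file was set to 0. The deposited series table held the same FPKM values as the library files.

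Expected counts, which carry no molecular identifiers, were rounded to whole numbers. The test was that of edgeR 4.0.16 (run under R 4.3.3), with filterByExpr by genotype, TMM factors, glmQLFit with robust=TRUE and glmQLFTest, with genotype as the sole term. The SE is the size of the log2 fold change over the square root of F. On counts simulated for these 14257 genes with 200 changed, 77% of changes of 1 and 96% of changes of 2 (log2) were recovered, and 4.42% of calls were unchanged genes. The simulation gave each gene the same dispersion in both groups and drew genes independently. The 8 enzymes that fell were spread more widely in WT and shared an order there, so these rates need not hold for them. Alternatives used other scalings and filters, DESeq2 1.42.0, limma 3.58.1, a replicate block and libraries left out.

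The members, lists and tests were chosen with earlier results of these data known. Values of each library are given for members that passed, for Srebf2, Scap, Insig1, Insig2, Hmgcs1, Sqle and Stard4, and for members with a library far from its group. In each other list up to 5 genes that passed, by lowest p, are named with values. Some further genes of the pathway are not reported here. Promoters (RefSeq) and gene overlaps (GENCODE M21) are on GRCm38.p6; the files use mm9, so no other coordinates are given.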

Additional observations from a re-analysis of the deposited data

Results flagged for a closer look

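Each group of 4 libraries was searched for a library whose gap to its nearest neighbour, as a share of the group's range, passed Dixon's 95% critical value. Of 80 groups searched, 54 of them of members, 7 held one, and chance alone gives about 1 in 20. WT replicate 1 was the highest for Mvd (20.94 FPKM, the other WT libraries 7.08 to 7.81), Dhcr7 (17.21 FPKM, the others 8.72 to 9.65), Insig1 (111.68 FPKM, the others 48.27 to 55.07) and Pdss1 (3.16 FPKM, the others 2.02 to 2.16). WT replicate 4 was the lowest for Lbr, at 6.92 FPKM, with the others at 8.73 to 9.07. WT replicate 2 was the highest for Vldlr, at 16.24 FPKM, with the others at 10.82 to 11.48. Replicate 2 labelled Mrp4 KO was the highest for Srebf1, at 75.33 FPKM, with the others of that group at 68.61 to 69.13.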

How the results depend on the processing

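Over the members' fold changes, 460 results under an alternative stayed on their side of the threshold, 47 lost a call and 6 gained one. All 47 losses were among the 8 that fell, since the 19 that did not pass had no call to lose. The sign changed in 27 results of 5 members, Tm7sf2, Hsd17b7, Srebf2, Insig1 and Mbtps1, which passed in 0 of them, and in 0 results of the 8 that fell. The groups of those 8 did not overlap, so their sign could hardly change with a library left out. With a library left out in turn, 1 to 11 members fell and 0 to 1 rose, 452 to 1706 of all tested genes fell and 720 to 1977 rose, and 3 to 8 other pathway genes fell and 3 to 9 rose. All tested genes lower numbered 680 with library size alone, 671 with limma on log2(FPKM + 1) and 682 on log2(FPKM + 0.1), against 1148. The difference of Abcc4 on log2(FPKM + 1) was 0.0284, 0.0353 on log2(FPKM + 0.1), and -0.001 to 0.0597 with a library left out.

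The replicate numbers 1, 2 and 4 occur in both groups. Deviations of same-numbered libraries correlated at -0.007, -0.103 and -0.034, so the numbers are not treated as pairs. With the replicate block on these 6 libraries, 0 members fell, 0 other pathway genes rose and 0 fell, and 34 of all tested genes fell and 124 rose. The same 6 libraries without the block gave 0 members, 2 other pathway genes higher and 2 lower, and 175 genes lower and 473 higher over all; this alternative was chosen after seeing the data. Under the block 12 members had an unadjusted p under 0.05, 11 of them lower. The share of all tested genes under that unadjusted threshold was not counted, so nothing is read from the 12. The call of Ch25h rests on 8 to 33 expected counts a library.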
